A study of Mus musculus with 2 samples.

Results

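The 10 imprinted growth genes read here are H19, Igf2, Dlk1, Meg3, Peg3, Plagl1, Cdkn1c, Grb10, Mest and Ndn. They were taken by symbol from the gene table of the deposited counts, and all 10 were found among its 28000 genes. The data are 10x Chromium 3′ counts of tdTomato+ cells sorted from trunk skin at E15.5, with 1 library from 1 wild-type embryo (WT, TyrCre::Hira wt/wt:tdTomato) and 1 from 1 HIRA knockout embryo (KO, TyrCre::Hira fl/fl:tdTomato). Both embryos carried Cre under the Tyr promoter and a Rosa26-LSL-tdTomato reporter, on a background given as mixed and close to C57BL/6J. The Tyr promoter is also active outside the melanocyte lineage, so a sorted cell need not be a melanoblast. The article reports a sort that was not fully pure, so a cell need not have had Cre activity either. A class below is a cluster or group of clusters that was named from marker genes and carries the ending -like, since the names were rebuilt here.

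An imprinted gene is expressed mainly from the copy inherited from 1 parent, which is set by DNA methylation marks laid down in the germ line. Many imprinted genes act on embryonic growth: Igf2, a growth factor, promotes it, while Cdkn1c, an inhibitor of cyclin-dependent kinases, and Grb10, an adaptor that dampens insulin and IGF receptor signalling, restrain it. These counts cannot separate the parental copies on a background so close to 1 strain, so levels were read, not imprinting itself.

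After filtering, 1540 WT and 828 KO cells remained, and the libraries shared 0 cell barcodes. Hira itself had 82 unique molecular identifiers (UMIs, counted RNA molecules) in WT and 50 in KO, which is 11.6 and 10.0 CPM (UMIs scaled to a sum of 1000000). A 3′ count may lie outside the deleted part of the gene, so this level checks nothing about the knockout. The tdTomato reporter had 55 UMIs in WT and 71 in KO, and recombination in each class was not tested. Xist, the RNA of the inactive X chromosome, had 16822 UMIs in WT and 23 in KO, whereas the Y-linked gene Eif2s3y had 0 in WT and 220 in KO. The WT library therefore came from a female and the KO library from a male embryo, and sex and genotype cannot be told apart in any comparison below.

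With 1 library per genotype no difference was tested. Levels are CPM of the summed UMIs of a class in a library, ranges in brackets are 95% intervals of the counting error alone, and a log2 ratio of 1 is a 2-fold difference. Cells of a library share an embryo and a preparation, so variation between embryos is not part of any interval. A ratio was counted as past 2-fold when it reached that size in a gene with at least 50 UMIs in the 2 groups together.

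Together the 10 genes held 17257 UMIs in WT (2444 CPM) and 34859 UMIs in KO (6977 CPM). Most of this total lay in the mesenchymal-like class and in a cluster that resembled it. The cells named mesenchymal-like numbered 194 in WT and 132 in KO, and another 21 WT and 121 KO cells formed a cluster led by Mfap4 and Aspn. In that cluster 9 of the 10 mesenchymal markers were raised, but none of them was among its 10 leading genes, which held the pericyte marker Acta2, so the rule gave it no class name. Its share of all cells was 1.36% in WT (0.846 to 2.08) and 14.6% in KO (12.3 to 17.2). The other large classes were melanoblast-like (535 WT and 139 KO cells) and glial-like (447 and 254 cells).

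In melanoblast-like cells the 10 melanoblast markers summed to 8667 (WT) and 8673 CPM (KO), led by Dct; 1 of them, Tyrp1, had 60 UMIs in WT and 0 in KO. In mesenchymal-like cells the 10 mesenchymal markers summed to 20087 (WT) and 24546 CPM (KO), led by Col1a2. In glial-like cells the 10 glial markers summed to 3955 (WT) and 3729 CPM (KO), led by Fabp7.

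The first group of members consists of a growth factor gene and the noncoding RNA gene beside it. Igf2 reached its highest WT level in the Mfap4/Aspn cluster, at 918 CPM (728 to 1142), followed by endothelial-like cells (427 CPM, 297 to 594) and mesenchymal-like cells (325 CPM, 290 to 363). The endothelial-like and mesenchymal-like intervals overlapped. In glial-like cells of WT Igf2 had 7 UMIs in 447 cells (4.29 CPM), and in melanoblast-like cells 4 UMIs in 535 cells (1.58 CPM).

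H19, the noncoding RNA, had the same WT order at the top, with 1778 CPM (1509 to 2081) in the Mfap4/Aspn cluster, then 878 CPM in endothelial-like (687 to 1106) and 654 CPM in mesenchymal-like cells (604 to 707), of which the last 2 overlapped. Of the 72 endothelial-like UMIs 24 came from 1 cell. With the cell richest in H19 left out of each class, the order of these 2 turned, at 585 CPM in endothelial-like and 624 CPM in mesenchymal-like cells. In glial-like cells of WT, where Igf2 had 4.29 CPM, H19 had 111 CPM. In keratinocyte-like cells of KO H19 stood at 856 CPM (792 to 924) and ranked 3 of 6 groups. The 8 endothelial-like cells of KO had 3659 CPM of H19, but 57.8% of those UMIs came from 1 cell, and 1546 CPM remained without it.

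Because 3′ counts do not scale with transcript length, H19 UMIs per Igf2 UMI were compared across cell types. In mesenchymal-like cells there were 2.01 H19 UMIs per Igf2 UMI in WT (1.76 to 2.31) and 1.88 in KO (1.67 to 2.11). The Mfap4/Aspn cluster had 1.94 in WT (1.47 to 2.57) and 2.29 in KO (2.07 to 2.52). Endothelial-like cells had 2.06 in WT (1.36 to 3.18) and 2.34 in KO (1.79 to 3.08). In KO those were 8 cells, where 108 of 187 H19 UMIs and 31 of 80 Igf2 UMIs each lay in 1 cell. Adipocyte-like cells of WT had 1.52 (1.11 to 2.09). In these 4 groups the 2 neighbouring genes thus stood in a similar proportion.

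Glial-like cells differed, with 25.9 H19 UMIs per Igf2 UMI in WT (12.3 to 65.2) and 5.38 in KO (3.81 to 7.79). Keratinocyte-like cells of KO had 8.35 (6.59 to 10.7), and macrophage-like cells of WT had 9.29 (4.26 to 24.0). None of these 4 intervals overlapped that of mesenchymal-like cells of the same library. After every cell had been thinned to 2000 UMIs, 57 of 185 WT mesenchymal-like cells held both RNAs, while in WT glial-like cells 0 of 409 held both and 58 held H19 without Igf2.

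**Figure D1:**
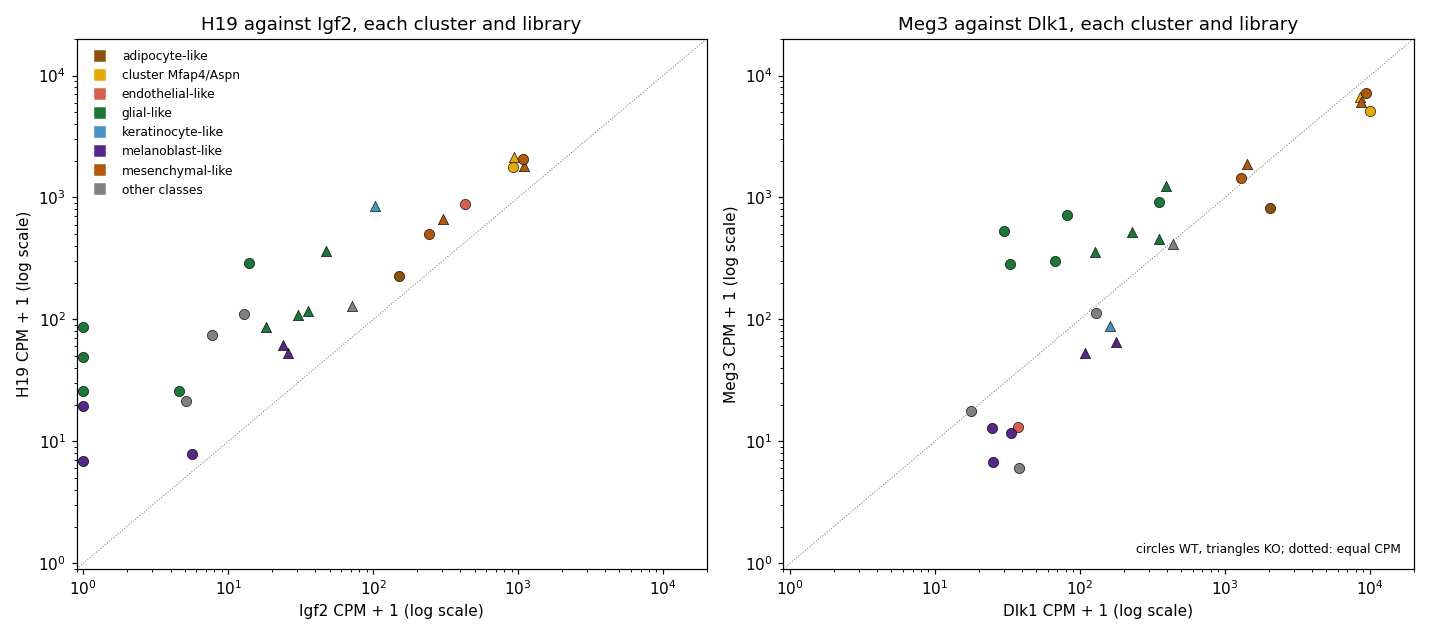
H19 against Igf2 (left) and Meg3 against Dlk1 (right) in CPM with 1 added, on log axes. Each point is a cluster with at least 20 cells in that library, circles for WT and triangles for KO, and the dotted line marks equal CPM. Mesenchymal-like and Mfap4/Aspn points lie close to the line or parallel to it, whereas most glial-like points lie farther above it.

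The miRNA miR-675 lies within H19, and its mature sequences are shown because the H19 RNA is its precursor. The UMIs count the host transcript and not the miRNA. The sequences come from RefSeq (GRCm38.p6), with the seed in capitals. Igf2, Meg3 and Mest also hold miRNA hairpins, namely miR-483, miR-770 and miR-335.
mmu-miR-675-5p: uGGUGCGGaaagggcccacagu
mmu-miR-675-3p: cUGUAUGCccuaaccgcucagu

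Dlk1, a transmembrane Delta-like protein known from fat and muscle precursors, and Meg3, a noncoding RNA, form the other neighbouring pair. Dlk1 had the most UMIs of the 10 genes in mesenchymal-like cells and in the Mfap4/Aspn cluster, in both libraries. In WT it reached 10036 CPM (9382 to 10724) in the Mfap4/Aspn cluster, then 2087 CPM in mesenchymal-like (1997 to 2180) and 2043 CPM in adipocyte-like cells (1915 to 2178), of which the last 2 overlapped. Glial-like cells followed with 131 CPM, but 113 of their 214 UMIs came from 1 cell, and 61.9 CPM remained without it.

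Meg3 stood at 5139 CPM (4674 to 5637) in the WT Mfap4/Aspn cluster, then 2002 CPM in mesenchymal-like (1914 to 2093), 815 CPM in adipocyte-like (734 to 901) and 599 CPM in glial-like cells (562 to 638). None of these 4 intervals overlapped. Endothelial-like cells held 1 UMI of Meg3 in each library, although Igf2 and H19 were high there. The other unnamed cluster, led by Ebf1 and Stmn2 (12 WT and 15 KO cells), had 2587 CPM of Meg3 in WT and 4349 CPM in KO, and in WT 59 of the 118 UMIs came from 1 cell.

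Dlk1 UMIs per Meg3 UMI were 1.04 in WT mesenchymal-like cells (0.979 to 1.11) and 1.15 in KO (1.09 to 1.21). The Mfap4/Aspn cluster had 1.95 (1.74 to 2.19) in WT and 1.29 (1.23 to 1.34) in KO. Adipocyte-like cells of WT lay higher, at 2.51 (2.22 to 2.83), and glial-like cells lower, at 0.219 (0.188 to 0.254) in WT and 0.411 (0.361 to 0.466) in KO. The WT glial-like value rests on 214 Dlk1 and 978 Meg3 UMIs. Of the 214, 113 came from 1 cell and 101 remained without it, so the ratio would be lower still. In WT glia the noncoding RNA was thus counted largely without its protein-coding neighbour: of 409 thinned cells, 219 held Meg3 alone, 16 Dlk1 alone and 24 both. Of 246 thinned KO cells, 90 held Meg3 alone, 20 Dlk1 alone and 62 both.

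Within mesenchymal-like cells both pairs varied together from cell to cell. The Spearman correlation of thinned counts was 0.62 in WT and 0.52 in KO for H19 and Igf2 (185 and 131 cells), and 0.60 in both libraries for Dlk1 and Meg3. The cells of a library share its preparation, and the class holds 2 clusters of unlike levels, so these values describe the class as it was drawn. The Mfap4/Aspn cluster of KO (117 cells) had lower values, 0.14 for H19 and Igf2 and 0.19 for Dlk1 and Meg3. In the 21 WT cells of that cluster they were 0.46 and 0.60.

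Cdkn1c, which restrains the cell cycle, followed a similar order. In WT it stood at 3682 CPM (3290 to 4107) in the Mfap4/Aspn cluster, then 1449 CPM in mesenchymal-like (1375 to 1527), 548 CPM in adipocyte-like (483 to 620) and 419 CPM in glial-like cells (388 to 451), with no overlap. Melanoblast-like cells were the lowest of the 9 groups ranked in WT, with 76 UMIs in 535 cells (23.6 to 37.5 CPM), which overlapped macrophage-like cells.

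Grb10, the receptor adaptor, was spread more evenly over the cell types. In WT it stood at 505 CPM (367 to 678) in the Mfap4/Aspn cluster, then 283 CPM in glial-like (258 to 310), 195 CPM in endothelial-like (112 to 317), 169 CPM in mesenchymal-like (144 to 197) and 144 CPM in melanoblast-like cells (129 to 159). Each of the last 4 overlapped its neighbour. Grb10 had the most UMIs of the 10 members in melanoblast-like cells of WT, 365 of them in 265 of 535 cells.

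Plagl1, a zinc finger transcription factor, had 998 CPM (799 to 1231) in the WT Mfap4/Aspn cluster and, in the mesenchymal-like class, 221 CPM (193 to 253). Melanoblast-like cells of WT held 102 CPM (90.4 to 116), above glial-like cells at 19.6 CPM. That made Plagl1 the only member with a WT level at least 2-fold higher in melanoblast-like than in glial-like cells, beside 5.71% of 6532 genes. Peg3, a zinc finger protein gene, had 619 CPM (465 to 808) in the Mfap4/Aspn cluster and, in the mesenchymal-like class, 396 CPM (357 to 437), and those intervals did not overlap.

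Mest, which encodes a hydrolase-like protein, had a pattern of its own. Its WT levels were 1870 CPM (1594 to 2180) in the Mfap4/Aspn cluster and 1598 CPM in endothelial-like cells (1336 to 1896), which overlapped, then 436 CPM in the glial-like (405 to 470) and 253 CPM in the mesenchymal-like class (223 to 287), which did not. Ndn, which encodes the MAGE family protein Necdin, reached 298 CPM (195 to 437) in the Mfap4/Aspn cluster, then 197 CPM in mesenchymal-like (170 to 227), 115 CPM in adipocyte-like (86.0 to 150) and 79.1 CPM in glial-like cells (66.0 to 93.9). For Ndn the first 2 overlapped, as did the last 2.

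**Figure D2:**
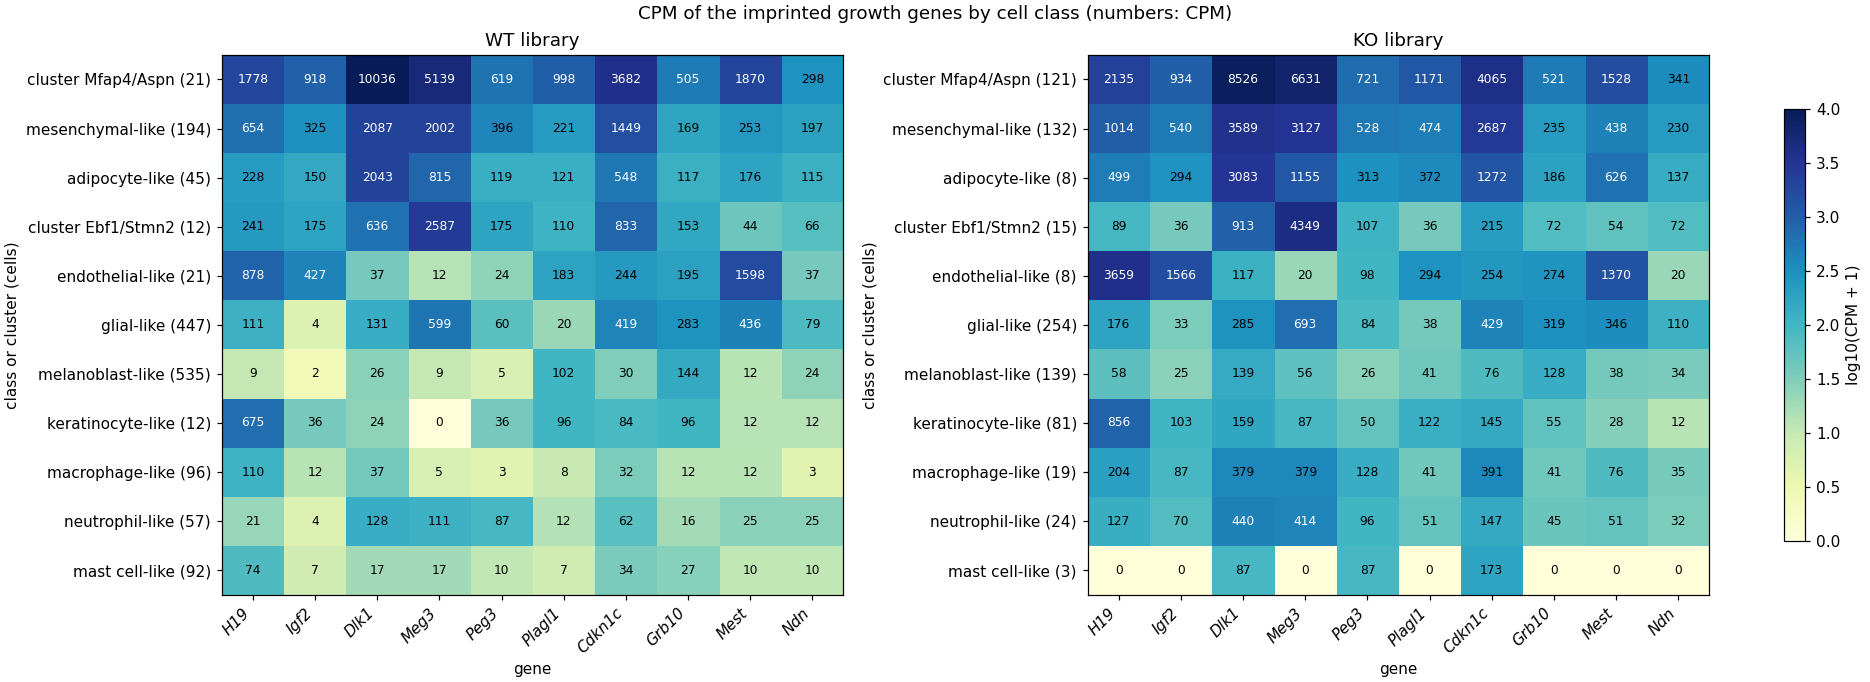
CPM of the 10 genes in the classes and unnamed clusters, WT left and KO right, without erythroid-like and pericyte-like cells, which are not drawn. Colour is log10 of CPM with 1 added, the numbers are CPM and the count of cells stands in brackets. The Mfap4/Aspn cluster is darkest in most columns, and melanoblast-like cells of WT are pale except for Grb10 and Plagl1. Groups with few cells, such as the 3 mast cell-like cells of KO, rest on few UMIs.

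Read between classes, 9 of the 10 members were at least 2-fold higher in mesenchymal-like than in melanoblast-like cells of WT, all but Grb10. Of the 5768 genes that could be read in this comparison 11.5% were that much higher. Meg3 stood out with 2002 against 9.46 CPM, a log2 ratio of 7.73 (7.15 to 8.37), and Igf2 with 325 against 1.58 CPM, a log2 ratio of 7.69 (6.32 to 9.57). Against glial-like cells 8 of 10 members were at least 2-fold higher in mesenchymal-like cells, where 6.85% of 5344 genes were. The exceptions were Grb10 (log2 ratio -0.74, -1.01 to -0.48) and Mest (253 against 436 CPM), both lower in mesenchymal-like cells. In KO the log2 ratio of mesenchymal-like to melanoblast-like cells was 5.79 for Meg3 (5.38 to 6.23) and 0.87 for Grb10 (0.53 to 1.22), and Mest was higher in mesenchymal-like than in glial-like cells (438 against 346 CPM), the opposite of WT.

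The mesenchymal-like class itself was uneven. Its larger cluster, led by Crabp1 and Twist2 (171 WT and 98 KO cells), had 1290 CPM of Dlk1 in WT and 1427 CPM in KO, while its smaller cluster, led by Mfap5 and Clec3b (23 WT and 34 KO cells), had 9377 and 8641 CPM. Plagl1 differed even more, with 79.6 and 104 CPM in the Crabp1/Twist2 cluster against 1518 and 1337 CPM in the Mfap5/Clec3b cluster. Igf2 had 242 and 301 CPM in the former and 1081 and 1097 CPM in the latter. In these genes the Mfap5/Clec3b cluster resembled the Mfap4/Aspn cluster, where Igf2 stood at 918 and 934 CPM.

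Peg3 varied least among these 3 clusters in WT, with 393 CPM in Crabp1/Twist2, 416 CPM in Mfap5/Clec3b and 619 CPM in Mfap4/Aspn. Mest had 149, 1206 and 1870 CPM in the same order. The members were held out of the clustering, but genes that vary with them were not, so the differences between clusters are descriptions.

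In mesenchymal-like cells all 10 members had a higher CPM in KO than in WT, with log2 ratios from 0.22 to 1.10 and a median of 0.69, where the median of 3940 genes was -0.01. Only Plagl1 passed 2-fold, from 221 to 474 CPM (log2 ratio 1.10, 0.86 to 1.34). That is 1 of 10 members at least 2-fold higher, beside 2.44% of genes, and 0 of 10 at least 2-fold lower, beside 1.27%. Cdkn1c stood at 1449 (WT) and 2687 CPM (KO; 0.89, 0.79 to 0.99), and Mest at 253 and 438 CPM (0.79, 0.56 to 1.03).

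Dlk1 had 2087 (WT) and 3589 CPM (KO; 0.78, 0.70 to 0.86), and Igf2 had 325 and 540 CPM (0.73, 0.52 to 0.94). Meg3 had 2002 and 3127 CPM (0.64, 0.56 to 0.73), and H19 654 and 1014 CPM (0.63, 0.48 to 0.78). The ratios of these 4 genes of the 2 neighbouring pairs lay within overlapping intervals. Grb10 (169 and 235 CPM; 0.47, 0.17 to 0.78), Peg3 (396 and 528 CPM; 0.42, 0.22 to 0.62) and Ndn (197 and 230 CPM; 0.22, -0.07 to 0.52) had the smallest ratios.

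The make-up of the class differed between the libraries, and its part in these ratios was not tested. The Mfap5/Clec3b cluster, with its high levels, held 11.9% (7.67 to 17.3) of the mesenchymal-like cells in WT and 25.8% (18.5 to 34.1) in KO. Within the clusters most differences were smaller: in Crabp1/Twist2 the 10 log2 ratios ran from -0.11 to 0.42 with a median of 0.25, and in Mfap5/Clec3b from -0.31 to 0.57 with a median of -0.11. Intervals lay above 0 for 6 members in Crabp1/Twist2, among them H19 (0.42, 0.23 to 0.62) and Meg3 (0.38, 0.26 to 0.50). For Mfap5/Clec3b they lay above 0 for 2 members, among them Cdkn1c (0.45, 0.29 to 0.61), and below 0 for 2. In Mfap5/Clec3b, Peg3 (0.57) and Ndn (-0.31) lay farther from 0 than in the class. Mest had -0.01 in Crabp1/Twist2 (-0.42 to 0.39) and -0.11 in Mfap5/Clec3b (-0.43 to 0.21). For Plagl1 the log2 ratio was 0.39 in the former (-0.13 to 0.90) and -0.18 in the latter (-0.47 to 0.11).

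In the Mfap4/Aspn cluster the 10 genes summed to 25842 (WT) and 26572 CPM (KO), and the log2 ratios ran from -0.29 to 0.37. Meg3 stood at 5139 (WT) and 6631 CPM (KO; 0.37, 0.23 to 0.51). Dlk1 had 10036 and 8526 CPM (-0.24, -0.34 to -0.13), and Mest 1870 and 1528 CPM (-0.29, -0.53 to -0.04). When that cluster was counted as mesenchymal-like, a choice made after seeing the data, the median ratio of the class was 1.00 and 6 of 10 members passed 2-fold, beside 5.23% of genes in either direction. With a minimum of 500 genes per cell the median was 1.01 and 6 of 10 did, beside 5.25%. That setting clustered the cells again, and 4975 genes could be read in the class against 3940 as reported, so its cells differed. With each library clustered alone the median was 0.40 and 0 of 10 passed 2-fold, beside 2.89%. There the WT class took in a cluster of 53 cells led by Clec3b, Mfap5, Aspn and Mfap4, while 2 KO clusters of 114 and 25 cells, both nearest to mesenchymal-like, stayed unnamed, so this setting compared unlike groups. The ratio of the class thus differed with the cells counted in it.

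**Figure D3:**
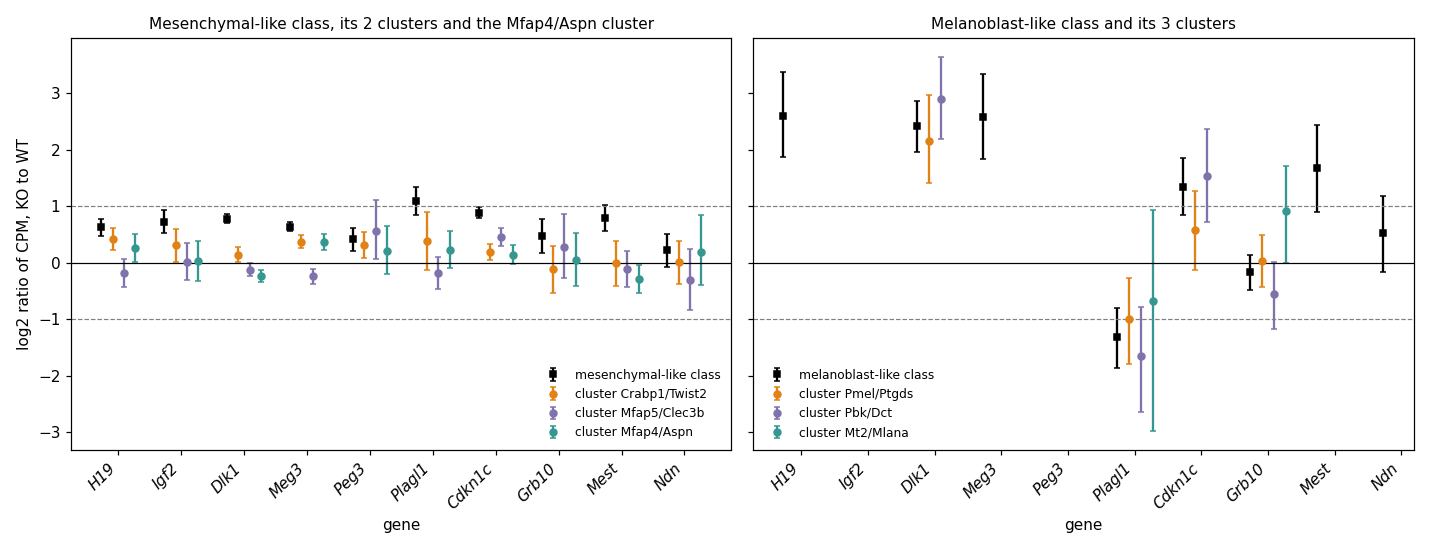
Log2 ratios of KO to WT with 95% counting intervals. Left, the mesenchymal-like class (black), its 2 clusters and the Mfap4/Aspn cluster; right, the melanoblast-like class (black) and its 3 clusters. Genes with fewer than 50 UMIs in the 2 libraries together are not drawn, and dashed lines mark 2-fold. On the left most ratios of the clusters lie nearer 0 than those of the class; on the right Plagl1 lies below 0 in each cluster.

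Melanoblast-like cells held few UMIs of most members, and most of them had a higher CPM in KO. H19 had 24 UMIs in 535 WT cells (9.46 CPM) and 49 UMIs in 139 KO cells (57.6 CPM), a log2 ratio of 2.61 (1.87 to 3.38). Meg3 had 24 and 48 UMIs (9.46 and 56.5 CPM; 2.58, 1.84 to 3.35), and Dlk1 66 and 118 UMIs (26.0 and 139 CPM; 2.42, 1.97 to 2.87). Of the 8 members with at least 50 UMIs, 5 were at least 2-fold higher in KO (H19, Dlk1, Meg3, Cdkn1c and Mest), beside 1.64% of 5429 genes, and 1 was at least 2-fold lower (Plagl1), beside 1.75%. The median over the 8 was 1.51. It was 0.22 in cells of at least 500 genes, where 3 of 5 members passed 2-fold beside 6.11% of genes, and 0.66 after thinning, where 3 of 4 did beside 3.39%. The 500-gene setting kept 1534 WT and 813 KO cells and clustered them again. With 4957 genes read in the class against 5429, it compared a class that was drawn differently. Cdkn1c, with a log2 ratio of 1.35, fell below 2-fold with each library clustered alone (0.41) and, as a choice made after seeing the data, in the largest cluster alone (0.58). With each library clustered alone, a WT cluster of 87 cells nearest to melanoblast-like stayed unnamed, so unlike groups were compared here as well. The make-up of this class differed too: the Mt2/Mlana cluster held 32.3% of its cells in WT (28.4 to 36.5) and 7.91% in KO (4.02 to 13.7), and the Pmel/Ptgds cluster 38.3% (34.2 to 42.6) and 63.3% (54.7 to 71.3). Its part in the ratios was not tested.

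Collagen and other mesenchymal marker genes moved in the same direction in these cells. The 10 mesenchymal markers, led by Col1a2, summed in this class to 139 (WT) and 618 CPM (KO), with a log2 ratio of 2.15 (1.95 to 2.35). All 10 had a higher CPM in KO and none was at 0 in either library. Of these, 4 genes (Col1a1, Col3a1, Dcn and Lum) were summed and multiplied by each member's proportion to them over all cells of the library, which gives the level a member would have if it came along with these RNAs. For H19 that level was 6.46 (WT) and 49.2 CPM (KO), beside the 9.46 and 57.6 CPM observed. For Dlk1 it was 20.5 and 137 CPM, beside 26.0 and 139 CPM, and for Cdkn1c 13.8 and 83.0 CPM, beside 29.96 and 76.5 CPM. For Meg3 it was 19.1 and 119 CPM, above the 9.46 and 56.5 CPM observed. Whether these UMIs came from the melanoblast-like cells or from RNA of other cells was not tested.

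Mest (11.8 and 37.6 CPM, beside 6.71 and 28.3 CPM) and Peg3 (5.12 and 25.9 CPM, beside 3.12 and 16.4 CPM) lay above that level in both libraries, and Grb10, Plagl1 and Ndn more than 2-fold above it. Grb10 had 144 (WT) and 128 CPM (KO), where the mesenchymal proportion gave 5.52 and 15.96 CPM, and its log2 ratio was -0.17 (-0.49 to 0.15). Ndn had 23.7 and 34.1 CPM (0.53, -0.16 to 1.19), where that proportion gave 2.32 and 8.88 CPM. For Igf2 there were 4 UMIs in WT and 21 in KO, each in a different cell (1.58 and 24.7 CPM; 3.97, 2.40 to 5.97), and for Peg3 13 and 22 UMIs. These 2 genes had too few UMIs for the count above.

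Plagl1 was the only member at least 2-fold lower in KO melanoblast-like cells. It had 260 UMIs in WT (102 CPM) and 35 in KO (41.2 CPM), a log2 ratio of -1.32 (-1.87 to -0.80), where the mesenchymal proportion gave 3.34 and 19.9 CPM. Among cells thinned to 2000 UMIs, 90 of 525 WT cells (17.1%) and 12 of 139 KO cells (8.63%) held a Plagl1 UMI. No WT cell held more than 8 of the 260 UMIs.

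The 3 melanoblast-like clusters all had less Plagl1 in KO. The cluster led by Pmel and Ptgds had 82.7 (WT) and 41.5 CPM (KO; -0.99, -1.79 to -0.26), and the cycling cluster led by Pbk and Dct had 116 and 37.0 CPM (-1.65, -2.64 to -0.79). The cluster led by Mt2 and Mlana had 108 and 68.0 CPM, with 3 UMIs in its 11 KO cells (-0.67, -2.98 to 0.94). Grb10, by contrast, had log2 ratios of 0.03, -0.55 and 0.92 in the same clusters, each with an interval that included 0.

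In glial-like cells Meg3, Mest, Cdkn1c and Grb10 were the most abundant members, and their ratios lay within 2-fold. Meg3 stood at 599 (WT) and 693 CPM (KO; 0.21, 0.07 to 0.34), Cdkn1c at 419 and 429 CPM (0.04, -0.13 to 0.20) and Grb10 at 283 and 319 CPM (0.17, -0.03 to 0.37). Mest was lower in KO, with 436 and 346 CPM (-0.34, -0.51 to -0.16).

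Of the 9 members that could be read in glial-like cells, 1 was at least 2-fold higher in KO (Dlk1, 131 and 285 CPM; 1.12, 0.87 to 1.37), beside 1.57% of 5678 genes, and 0 were at least 2-fold lower, beside 1.11%. For Dlk1, with 113 of its 214 WT UMIs in 1 cell, the log2 ratio was 1.96 when the cell with most of its UMIs was left out of each library, a choice made after seeing the data, and in the 5 clusters it ran from 0.17 (Sostdc1) to 2.98 (Pcdh20/Gap43). The median was 0.48. In this class the Pou3f1/Cpm cluster held 10.1% of the cells in WT (7.44 to 13.2) and 24.0% in KO (18.9 to 29.8), and the Gm29865/Grb14 cluster 12.98% (10.0 to 16.4) and 5.91% (3.34 to 9.55), and the part of this make-up in the ratios was not tested. H19 had 111 and 176 CPM (0.66, 0.37 to 0.96) and Plagl1 19.6 and 37.7 CPM (0.94, 0.26 to 1.64). In the 5 clusters the H19 ratio ran from 0.32 (Sostdc1, -0.06 to 0.69) to 2.11 (Pcdh20/Gap43, 1.16 to 3.14). Igf2, with 7 and 39 UMIs, had too few for the count (4.29 and 32.6 CPM; 2.93, 1.75 to 4.33). The 10 mesenchymal markers summed in this class to 2116 (WT) and 3114 CPM (KO; 0.56, 0.49 to 0.62), all 10 higher in KO and led by Col1a2; their part in these ratios was not tested. In the largest glial-like cluster alone, a setting added after seeing the data, the median was 0.20.

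**Figure D4:**
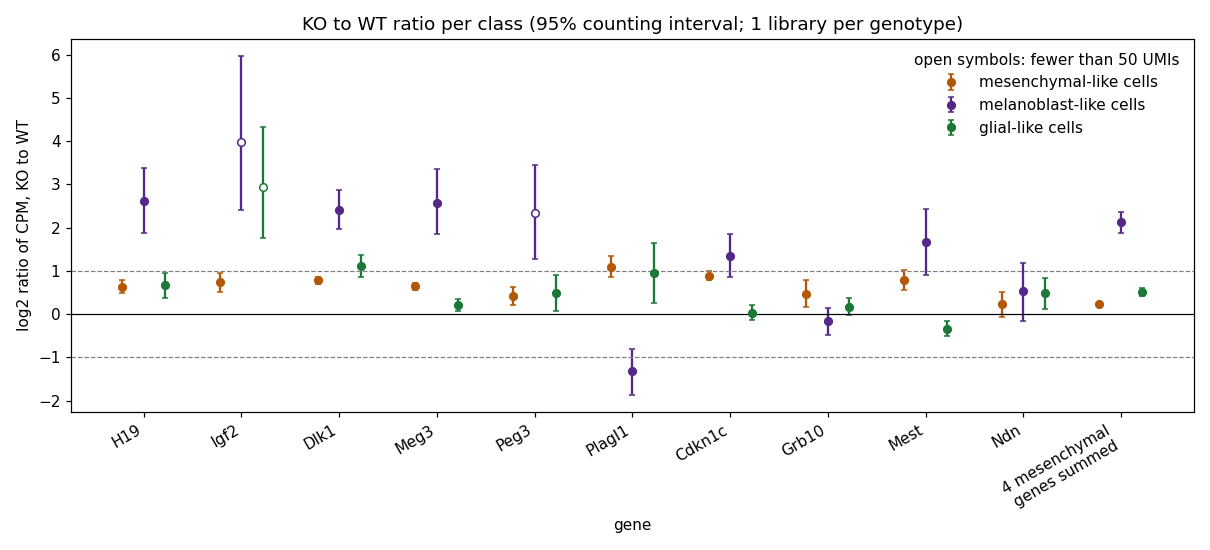
Log2 ratio of KO to WT for each member in the 3 main classes, with 95% counting intervals, and for the sum of Col1a1, Col3a1, Dcn and Lum at the right. Open symbols rest on fewer than 50 UMIs and dashed lines mark 2-fold. In melanoblast-like cells H19, Dlk1, Meg3 and Peg3 lie near the ratio of the mesenchymal genes at the right, whereas Plagl1 lies below 0 and Grb10 near 0.

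The glial-like clusters were unlike each other in these genes. H19 was highest in the cluster led by Sostdc1, at 291 CPM in WT (244 to 345) and 364 CPM in KO (299 to 438), against 25.0 CPM (13.3 to 42.8) and 108 CPM (75.8 to 148) in the largest cluster, led by Pcdh20 and Gap43. Meg3 stood at 919 and 1236 CPM in the Sostdc1 cluster and 531 and 524 CPM in the Pcdh20/Gap43 cluster. Mest was highest in the cluster led by Gm29865 and Grb14, at 714 CPM in WT (601 to 841) and 581 CPM in KO (400 to 816). Grb10 was nearly level across the 5 clusters of WT, from 260 CPM in the cycling cluster to 310 CPM in Pcdh20/Gap43.

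Adipocyte-like cells (45 WT and 8 KO cells, with Car3 and Fabp4 as leading genes) held Dlk1 at 2043 (WT) and 3083 CPM (KO), Cdkn1c at 548 and 1272 CPM and Mest at 176 and 626 CPM. Of the 130 Cdkn1c UMIs of KO 63 came from 1 cell, and 656 CPM remained without it. The log2 ratios of the 10 members ran from 0.25 to 1.84 (Mest), with a median of 1.05. In these cells the 10 mesenchymal markers, led by Col1a2, went from 1872 to 6587 CPM (1.82, 1.67 to 1.96), all 10 higher in KO; the part of such RNA in the ratios was not tested.

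Macrophage-like cells (96 WT and 19 KO cells) had little of most members in WT, with 110 CPM of H19, 37.3 CPM of Dlk1 and 3 UMIs of Meg3. In KO Meg3 had 65 UMIs (379 CPM), but 51 of them came from 1 cell, which is 78.5%, and of the 67 UMIs of Cdkn1c 47 came from 1 cell. The mesenchymal markers differed most here, with 142 CPM against 2973 CPM in KO (4.39, 4.05 to 4.74), all 10 higher, and Pdgfra at 0 in WT. In keratinocyte-like cells, where H19 was high in both libraries (675 CPM in 12 WT cells, 856 CPM in 81 KO cells), Meg3 had 66 UMIs in KO (86.8 CPM) and 0 in WT, a count that at 3 UMIs allows up to 36.1 CPM.

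In KO the order over the 6 groups with at least 20 cells was headed by the Mfap4/Aspn cluster for all 10 members. Mesenchymal-like cells came next for 9 members, and glial-like cells for Grb10 (319 CPM, 288 to 353, against 235 CPM, 203 to 269). Keratinocyte-like cells ranked 3 for H19, Igf2 and Plagl1, and for Plagl1 they stood at 122 CPM (98.7 to 150) against 41.2 CPM (28.7 to 57.3) in melanoblast-like cells.

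Cycling cells, meaning those of clusters in which at least 5 of 10 cell division genes were raised, were found in the glial-like and melanoblast-like classes. Cdkn1c, the cell cycle inhibitor, had 264 CPM in the 66 cycling glial-like cells of WT and 451 CPM in the other 381 (log2 ratio -0.77, -1.14 to -0.42), and in KO 246 and 461 CPM (-0.91, -1.39 to -0.45). Meg3 was lower as well, with 285 against 665 CPM in WT (-1.22, -1.57 to -0.89) and 355 against 751 CPM in KO (-1.08, -1.48 to -0.71). H19 had 25.0 against 129 CPM in WT (-2.37, -3.70 to -1.29), and 85.8 against 191 CPM in KO (-1.16, -2.02 to -0.40). The other cells are of 4 unlike clusters, and low levels were not particular to cycling cells: of the clusters not among the cycling ones, Pcdh20/Gap43 had 219 (WT) and 233 CPM (KO) of Cdkn1c and 25.0 CPM of H19 in WT, and Pou3f1/Cpm had 302 CPM of Meg3 in WT.

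Not all members followed. Grb10 had 260 CPM in cycling and 288 CPM in other glial-like cells of WT (-0.15, -0.53 to 0.22), and Mest 392 and 446 CPM (-0.18, -0.49 to 0.11). In melanoblast-like cells of WT Cdkn1c stood at 27.5 CPM in cycling and 31.6 CPM in other cells (-0.20, -0.93 to 0.50), and Plagl1 at 116 and 93.5 CPM (0.31, -0.05 to 0.67). In those of KO Grb10 was lower in cycling cells, with 95.7 against 148 CPM (-0.63, -1.28 to -0.01). Dlk1 was higher there, with 176 against 116 CPM (0.60, 0.06 to 1.15), and Cdkn1c had 80.3 and 74.1 CPM (0.12, -0.66 to 0.87).

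Receptors for the ligand Igf2 were read beside it. Igf1r, which transmits the growth signal, had 44.1 (WT) and 40.1 CPM (KO) in mesenchymal-like cells (-0.14, -0.83 to 0.55), 53.6 and 52.9 CPM in melanoblast-like cells (-0.02, -0.54 to 0.48) and 56.4 and 73.7 CPM in glial-like cells (0.39, -0.05 to 0.82). Igf2r, itself imprinted in mice and known to take Igf2 up for degradation, had 52.3 and 80.1 CPM in mesenchymal-like cells (0.62, 0.07 to 1.17), 33.5 and 40.0 CPM in melanoblast-like and 15.3 and 11.7 CPM in glial-like cells. The insulin receptor gene Insr had 5 UMIs in WT and 9 in KO mesenchymal-like cells. Melanoblast-like cells of WT thus held 136 UMIs of Igf1r beside 4 of Igf2.

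Of the 15 genes listed for the IGF axis, 8 could be read in mesenchymal-like cells and 2 of them were at least 2-fold higher in KO, beside 2.44% of genes, both genes of IGF binding proteins. Igfbp6 had 23.6 (WT) and 143 CPM (KO; 2.60, 1.94 to 3.31), and Igfbp4 had 100 and 236 CPM (1.23, 0.87 to 1.59). The growth factor gene Igf1 stood at 59.5 and 111 CPM (0.90, 0.41 to 1.40). The Mfap5/Clec3b cluster held 11.9% of the class in WT and 25.8% in KO, and the part of this make-up in the ratios was not tested. Within that cluster the ratios were 1.02 for Igfbp6 (0.36 to 1.75), 0.07 for Igfbp4 (-0.33 to 0.49) and -0.19 for Igf1 (-0.78 to 0.44). Within Crabp1/Twist2 they were -0.88 for Igfbp4 (-2.03 to 0.16) and -0.11 for Igf1 (-1.15 to 0.88), and Igfbp6 had 1 and 3 UMIs there. In melanoblast-like cells 0 of 5 and in glial-like cells 0 of 8 passed 2-fold in either direction, beside 3.39% and 2.68% of genes. In glial-like cells Igfbp3 had 27.0 and 46.0 CPM (0.77, 0.17 to 1.38) and Igfbp4 50.9 and 74.5 CPM (0.55, 0.10 to 1.00), while Igfbp5 had 372 and 319 CPM (-0.22, -0.41 to -0.04) and Igfbp7 163 and 114 CPM (-0.52, -0.83 to -0.21).

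A further 38 imprinted genes were listed, of which 36 were in the gene table (Rian and Peg13 were not) and few had enough UMIs. In mesenchymal-like cells 2 of 9 were at least 2-fold higher in KO, beside 2.44% of genes: Peg10 (18.5 and 50.7 CPM; 1.46, 0.63 to 2.34) and Mirg, a noncoding RNA gene of the Dlk1 region (18.5 and 42.4 CPM; 1.20, 0.35 to 2.10), and the median was 0.24. Within Mfap5/Clec3b the ratios were 0.14 for Peg10 (-0.84 to 1.22) and -0.40 for Mirg (-1.56 to 0.86), and within Crabp1/Twist2 0.98 (-0.74 to 2.79) and 1.57 (0.26 to 2.998). In melanoblast-like cells 1 of 8 was, beside 1.64%: Copg2 (12.2 and 24.7 CPM; 1.02, 0.14 to 1.86), with a median of 0.13. In glial-like cells 0 of 11 passed 2-fold, beside 2.68%, and the median was -0.16. Gnas, the gene of a G protein subunit, had the highest WT level of the list in all 3 classes, with 1668 and 1846 CPM in mesenchymal-like, 969 and 1025 CPM in melanoblast-like and 1188 and 1312 CPM in glial-like cells.

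Of 8 genes whose products keep imprinting marks, 5 could be read in each main class and 0 passed 2-fold, beside 3.71% of genes in mesenchymal-like, 3.39% in melanoblast-like and 2.68% in glial-like cells. Trim28, a corepressor that acts with zinc finger proteins at imprinted regions, had 101 (WT) and 61.1 CPM (KO) in glial-like cells (-0.72, -1.14 to -0.31), but 83.2 and 70.6 CPM in melanoblast-like cells (-0.24, -0.68 to 0.18). Ctcf, a DNA-binding protein known to insulate the Igf2 and H19 region, had 96.6 and 106 CPM in melanoblast-like cells and 51.3 and 56.6 CPM in mesenchymal-like cells. Dnmt1, which copies DNA methylation, had 54.8 and 68.2 CPM in melanoblast-like and 44.1 and 50.7 CPM in mesenchymal-like cells.

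Genes with patterns like those of the members were sought over 27 points, each a cluster with at least 20 cells in 1 library, from 17 clusters and among 2851 genes. Log2 levels were correlated after 10 CPM had been added, and points of the same cluster or library are not independent. H19 and Igf2 were each other's closest match (0.93). Dlk1 was most like Dpt (0.96), Meg3 like Col5a1 (0.96), Peg3 like Col6a1 (0.96) and Cdkn1c like Itm2a (0.97). Ndn was most like Itm2a (0.94), Plagl1 like Clec3b (0.87), Grb10 like Cthrc1 (0.94) and Mest like Tshz2 (0.93).

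After the first match, H19 was followed by Egr1 and Emp1 and Igf2 by Agtr2 and Ebf1. Sfrp2 and Srpx came next for Dlk1, Col5a2 and the member Peg3 for Meg3, and Pcolce and Col6a2 for Peg3. Agtr2 and Aspn followed for Plagl1, Col5a2 and Pcolce for Cdkn1c, Rhoc and Mmp14 for Grb10, Plpp3 and Sgce for Mest, and Cdkn1c and Pcolce for Ndn. Among the members, Meg3 correlated with Peg3 (0.94) and Cdkn1c (0.94), whereas Grb10 had the lowest values with Igf2 (0.34) and H19 (0.35).

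Positions are those of GENCODE M21 on GRCm38. On chromosome 7 lie 5 members: H19 (ENSMUSG00000000031, chr7:142575529-142578143) and Igf2 (ENSMUSG00000048583, chr7:142650766-142666816), 72622 bases apart, Cdkn1c (ENSMUSG00000037664, chr7:143458339-143461050), Peg3 (ENSMUSG00000002265, chr7:6703892-6730431) and Ndn (ENSMUSG00000033585, chr7:62346569-62350262). On chromosome 12 lie Dlk1 (ENSMUSG00000040856, chr12:109452823-109463336) and Meg3 (ENSMUSG00000021268, chr12:109541001-109571726), 77664 bases apart. The others are Mest (ENSMUSG00000051855, chr6:30723547-30748465), Plagl1 (ENSMUSG00000019817, chr10:13060504-13131694) and Grb10 (ENSMUSG00000020176, chr11:11930508-12038683). H19 and Meg3 are annotated as noncoding, and the other 8 as protein-coding.

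Promoter windows of 300 bases from RefSeq (GRCm38.p6) were found for 8 of 10 members, 15 windows in all, but not for H19 and Cdkn1c. They were searched on both strands for the letters TGCCGC, a motif of methylated sites that the imprint keeper Zfp57 is known to bind. The letters occurred in 5 of the 8 members (Mest, Igf2, Plagl1, Grb10 and Meg3) and in 6 of their 15 windows, of which 2 are overlapping windows of Mest that hold the same 2 matches. Over all promoters they occurred in 13.1% of 27025 genes and 11.6% of 32851 windows. The median count of CG pairs per window was 13 for the members and 7 for all windows; the motif itself contains a CG pair. A match is a description of the sequence and not a site of binding.

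The windows of 4 members that hold the motif are shown, because Plagl1 is the only member at least 2-fold lower in KO melanoblast-like cells, Grb10 the one most abundant in WT melanoblast-like cells, and Mest and Meg3 the most abundant in WT glial-like cells. They read 5′ to 3′ on the strand of the gene, with the motif or its reverse complement GCGGCA in capitals. Plagl1 lies at chr10:13090582-13090881 (+ strand), Grb10 at chr11:12037371-12037670 (- strand), Mest at chr6:30737800-30738099 (+ strand) and Meg3 at chr12:109540746-109541045 (+ strand).
Plagl1: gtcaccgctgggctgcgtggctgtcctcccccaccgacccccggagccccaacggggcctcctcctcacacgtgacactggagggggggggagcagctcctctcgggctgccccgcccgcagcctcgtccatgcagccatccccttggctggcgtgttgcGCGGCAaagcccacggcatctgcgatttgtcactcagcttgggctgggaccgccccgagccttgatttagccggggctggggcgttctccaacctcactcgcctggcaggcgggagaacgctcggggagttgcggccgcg
Grb10: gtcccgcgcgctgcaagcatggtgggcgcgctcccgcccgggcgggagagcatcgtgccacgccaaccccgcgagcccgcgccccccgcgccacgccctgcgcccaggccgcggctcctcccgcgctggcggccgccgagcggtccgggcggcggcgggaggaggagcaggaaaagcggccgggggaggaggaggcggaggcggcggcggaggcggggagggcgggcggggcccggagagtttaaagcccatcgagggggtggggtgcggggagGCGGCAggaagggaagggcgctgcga
Mest: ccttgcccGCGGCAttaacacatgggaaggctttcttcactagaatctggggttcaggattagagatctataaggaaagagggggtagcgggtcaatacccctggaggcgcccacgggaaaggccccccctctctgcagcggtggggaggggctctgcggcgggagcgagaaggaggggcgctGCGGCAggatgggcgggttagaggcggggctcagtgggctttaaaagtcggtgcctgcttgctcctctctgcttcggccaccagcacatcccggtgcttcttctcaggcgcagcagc
Meg3: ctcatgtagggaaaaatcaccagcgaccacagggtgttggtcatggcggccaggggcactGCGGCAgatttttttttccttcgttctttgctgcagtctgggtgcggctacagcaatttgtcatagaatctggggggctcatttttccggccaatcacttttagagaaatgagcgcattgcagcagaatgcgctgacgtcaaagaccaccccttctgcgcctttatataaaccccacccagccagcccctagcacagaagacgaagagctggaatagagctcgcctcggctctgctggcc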

How the data were processed

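With Cell Ranger 2.2.0 on mm10 the authors made UMI tables of genes by barcodes and deposited each as raw counts (the unit is count), not normalized. The WT library held 1546 barcodes and 7073939 UMIs (median 3961 per barcode), and the KO library 846 barcodes and 5049514 UMIs (median 5152.5). Barcodes with under 100 genes, over 40000 UMIs or over 10% mitochondrial UMIs were removed (6 WT, 18 KO). Log counts (10000 per cell, genes in at least 3 cells) gave 2000 variable genes, and 1979 entered the clustering once the members, the other listed imprinted, IGF axis and imprint-keeping genes, HIRA complex and histone H3.3 genes, the sex-linked genes and the reporters had been held out. The joint Leiden clustering (resolution 1, 30 principal components, 15 neighbours, seed 0) gave 20 clusters. Doublet calls of Scrublet (9 in WT, 6 in KO) were kept.

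The class name of a cluster was that of the marker list with most of its genes raised, as a share (a UMI in at least 10% of its cells and, with 10 CPM added, a level at least 1 log2 unit above the other cells). At least 3 raised markers were needed, and a name was refused where the 10 leading genes went against it. Of 14 marker lists 11 gave a class, and 2 clusters stayed unnamed. The results come from clusters rebuilt from markers, which need not match those of the article.

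UMIs were summed per class and library, with exact Poisson intervals for CPM, Clopper-Pearson intervals for shares and conditional binomial intervals for ratios, at 95%. The computation of ratios was tested on simulated data. A count of 0 was treated as a limit of 3 UMIs. For shares of cells and correlations, each cell was thinned to 2000 UMIs, and shallower cells (102 in WT, 23 in KO) were dropped. Ranked levels cover groups with at least 20 cells. Named genes were the 10 members, the genes of each list with at least 50 UMIs and the largest ratios (up to 4) or highest WT levels (3) in each main class, Igf1r, Igf2r and Insr, and the 3 genes most like each member among those with at least 500 UMIs. The text gives a selection of the values so named. The members and lists were chosen with earlier results of these data known.

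The alternatives were a minimum of 500 genes per cell, Leiden resolutions 0.5 and 2, each library clustered alone, doublets left out, scaling by the median ratio of genes, mean shares per cell, thinning and a minimum of 10 UMIs. Scripts ran in Python 3.11.15 with matplotlib 3.10.9, pandas 2.3.3, numpy 2.4.6, igraph 0.11.9, scanpy 1.11.5, scipy 1.17.1, scikit-image 0.26.0 and anndata 0.12.19.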

Additional observations from a re-analysis of the deposited data

Results flagged for a closer look

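Plagl1 was flagged because its KO to WT log2 ratio was 1.10 in mesenchymal-like cells and 0.94 in glial-like cells but -1.32 in melanoblast-like cells, so that the ratios of these classes lay in opposite directions. Within the mesenchymal-like clusters it was 0.39 (-0.13 to 0.90) in Crabp1/Twist2 and -0.18 (-0.47 to 0.11) in Mfap5/Clec3b, and the latter's share of the class went from 11.9% to 25.8%. The part of that share in the ratio of the class was not tested. Mest was flagged on the same ground, with 0.79 in mesenchymal-like and 1.67 in melanoblast-like cells but -0.34 in glial-like cells. No mesenchymal-like cluster had it higher in KO: the ratio was -0.01 in Crabp1/Twist2 and -0.11 in Mfap5/Clec3b, with intervals that included 0. In melanoblast-like cells the ratio rests on 30 and 32 UMIs, and the 10 mesenchymal markers, led by Col1a2 and all higher in KO, had a ratio of 2.15 there (139 and 618 CPM); their part in it was not tested. Each ratio compares 1 library with 1 library, and the difference between the cell types was not tested.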

How the results depend on the processing

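With 1 embryo per genotype, counting intervals leave out variation between embryos, and sex and genotype cannot be told apart. Depth limits the members with few UMIs, several of which had under 100 in melanoblast-like cells. Of 12 settings, 3 of them chosen after seeing the data, each ratio of a member with enough UMIs got a value in 7 to 11, and none that was past 2-fold as reported in a main class changed sign there; genes of the other lists and the other classes were not rerun. Cdkn1c in melanoblast-like cells (1.35) became 0.41 with each library clustered alone and 0.58 with the largest cluster alone. The former setting left 87 WT cells nearest to melanoblast-like unnamed and out of the class. Mest in mesenchymal-like cells (0.79 as reported) ran from -0.01 to 1.30 and was past 2-fold in 5 of 11 settings. The number of members at least 2-fold higher in WT mesenchymal-like cells was 8 or 9 against melanoblast-like and 8 against glial-like cells in the 10 settings that apply to it. Plagl1 in melanoblast-like cells ran from -1.39 to -0.99.

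Percentages here are the share of all genes past 2-fold in the same setting. For the mesenchymal-like class the median log2 ratio over members (0.69 as reported) and the number past 2-fold (1 of 10 as reported, 3.71%) became 1.01 and 6 with at least 500 genes per cell (5.25%), 0.93 and 4 at Leiden resolution 2 (4.72%), 0.40 and 0 with each library clustered alone (2.89%), 0.99 and 3 without Scrublet doublets (5.29%), and, as settings chosen after seeing the data, 0.25 and 0 with the largest cluster alone (2.36%) and 1.00 and 6 with the Mfap4 cluster counted in (5.23%). The number was 2 at resolution 0.5 (4.40%) and 0 with mean shares per cell (3.17%). In melanoblast-like cells the median (1.51) and the number (6 of 8, 3.39%) became 0.22 and 3 of 5 with at least 500 genes (6.11%), 0.66 and 3 of 4 after thinning (3.39%), and 0.30 and 1 of 4 with the largest cluster alone (4.26%). In that cluster H19 (3.13), Meg3 (3.18) and Mest (1.94) had under 50 UMIs and left the count. In glial-like cells the median (0.48) became 0.20 with the largest cluster alone, and the number (1 of 9, 2.68%) became 2 of 7 there (3.36%), 2 of 9 with mean shares per cell (3.05%) and 2 of 10 with a minimum of 10 UMIs (10.4%). The 500-gene setting kept 1534 WT and 813 KO cells and clustered them again, so its classes were drawn differently. The cause of the other changes was not tested.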
